A study of Mus musculus with 23 samples.

Results

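miR-21a is a mouse microRNA whose hairpin gives 2 mature products, the 5p arm (mmu-miR-21a-5p, below miR-21a-5p) and the 3p arm (mmu-miR-21a-3p, below miR-21a-3p). These 2 entries were taken by name from 1256 microRNA entries in 4 small RNA count tables, and both have counts in all 23 libraries. The libraries come from 6 populations of mouse lymphocytes in a study that profiled group 2 innate lymphoid cells (ILC2) alongside T helper 2 (Th2) cells, grown in culture or taken fresh from the lung. IL-33 ILC2 (n = 4) were lung ILC2 of wild-type mice that had received 500 ng of IL-33 by oropharyngeal aspiration over 3 days. Cultured ILC2 (n = 4) were wild-type lung ILC2 kept for 10 days with IL-33, TSLP and IL-7 at 10 ng/ml. Both are set against lung ILC2 of wild-type mice with no treatment (n = 4), and all of these cells were sorted by the same gate, CD45+Thy1+lin-CD4-CD25+ST2+. OVA-lung Th2 (n = 3) were CD45+CD11c-CD11b-CD4+CD3+4get+ lung cells of Il4tm1LKy mice, whose reporter marks cells that transcribe Il4, after intraperitoneal sensitization with 50 µg of ovalbumin (OVA) in alum over 3 weeks and aspiration of 50 µg of ovalbumin over 3 days. Cultured Th2 (n = 4) were wild-type CD4+ cells of spleen and lymph node, bead-selected and grown for 5 days on anti-CD3 and anti-CD28, with IL-4 at 500 U/ml and an antibody against interferon gamma at 10 µg/ml. Both T helper groups are set against CD4 T cells (n = 4), wild-type CD4+CD62LhiCD44loCD25-CD69- cells of spleen and lymph node. OVA-lung Th2 therefore differ from CD4 T cells in strain, organ and gate as well as in exposure, and these cannot be told apart. Cultured Th2 differ from CD4 T cells in how the cells were selected as well as in culture. Lung ILC2 differ from CD4 T cells in organ and gate as well as in lineage. These cannot be told apart either.

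MicroRNA hairpins are cut from a longer transcript by Drosha and then by Dicer, after which an Argonaute protein keeps mainly one strand as the guide. For miR-21a the guide is the 5p arm, and the 3p arm is the strand mostly lost. miR-21 is known to be induced when lymphocytes are activated, through factors such as STAT3 and AP-1, and to repress Pdcd4, an inhibitor of translation. In the allergic lung it is known as an induced microRNA that targets Il12a, a subunit of the Th1-promoting cytokine IL-12.

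The mature sequences from RefSeq (GRCm38.p6) are shown because the seed, bases 2 to 8 in capitals, sets which transcripts an arm can pair with, and because near copies of the 5p arm could share its reads.
miR-21a-5p: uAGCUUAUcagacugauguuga
miR-21a-3p: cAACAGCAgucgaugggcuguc
miR-21b: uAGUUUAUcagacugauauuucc
miR-21c: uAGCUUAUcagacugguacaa
The 2 arms of miR-21a have different seeds. Of the mature microRNAs in the reference, only miR-21c shares the seed of the 5p arm, and it has no entry in the count tables. It matches miR-21a-5p over the 15 leading bases and at 16 of 21 positions. miR-21b differs within the seed, matches over the 3 leading bases and is identical at 18 of 22 positions. Its precursor was the only other miR-21 entry, with 0.5 counts in cultured ILC2 library 1, 4 counts in cultured ILC2 library 3, 1.5 counts in OVA-lung Th2 library 3 and 0 elsewhere. The hairpin Mir21a lies on the minus strand at chr11:86584067-86584158, with the 5p arm at chr11:86584120-86584141 and the 3p arm at chr11:86584082-86584103, 16 bases apart. GENCODE M21 places it in the last exon of the protein-coding gene Vmp1 (chr11:86583865-86683836), within the untranslated part and on the same strand. Near copies lie at chr3:29636768-29636790 on the plus strand (miR-21b) and chr8:128278188-128278208 on the minus strand (miR-21c).

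Library totals ran from 84911 to 28371902 microRNA counts (median 832213), which are expected counts that the authors deposited. The replicate number of a library names its count table, and each of the 4 tables holds 1 library per group, except that there is no OVA-lung Th2 library of number 4. Levels are given as CPM (counts set to a sum of 1000000 in each library) or as a share of the library. The blood cell microRNA miR-142a (both arms) was present in every group, at group medians of 1.70% to 8.34% of the counts. The T cell microRNA miR-181a-5p had its highest median in CD4 T cells, 2.13%, but did not set all T cells apart, since its median was 0.0627% in cultured Th2, below the 0.286% of lung ILC2. The 5 mesenchymal markers held 0.0266% to 0.178% of the counts in IL-33 ILC2 and 0.00944% to 0.122% in cultured ILC2, against 0.435% to 1.10% in lung ILC2, and miR-199a-5p and miR-214-3p were at 0 in cultured Th2 and CD4 T cells. The 2 endothelial markers held 0.0432% to 0.407% of the counts in IL-33 ILC2 and 0.00379% to 0.05% in cultured ILC2, against 0.0256% to 2.16% in lung ILC2. They held 0.00983% to 0.108% in OVA-lung Th2 and 0.000452% to 0.0337% in cultured Th2, against 0% to 0.0317% in CD4 T cells. Mesenchymal markers held 0.00393% to 0.480% in OVA-lung Th2 and 0.000232% to 0.0182% in cultured Th2, against 0.000924% to 0.0122% in CD4 T cells. The 3 erythroid markers held 0.0144% to 0.688% in OVA-lung Th2 (median 0.617%) and 0.000211% to 0.192% in cultured Th2 (median 0.00341%), against 0.00123% to 0.338% in CD4 T cells (median 0.00717%). In the ILC2 groups erythroid markers held 0% to 0.395% in IL-33 ILC2 and 0.0245% to 0.145% in cultured ILC2, against 0.0161% to 1.44% in lung ILC2. The 6 epithelial markers had medians of 0.0632% in CD4 T cells, 0.0275% for OVA-lung Th2 and 0.0203% for cultured Th2. Their medians were 0.0222% in lung ILC2, 0.0106% in IL-33 ILC2 and 0.00963% in cultured ILC2. The myeloid marker miR-223-3p held 0% to 0.00870% in IL-33 ILC2 and 0% to 0.00201% in cultured ILC2, against 0% to 0.0969% in lung ILC2. It held 0% to 0.113% in OVA-lung Th2 and 0% to 0.00533% in cultured Th2, against 0.000154% to 0.0720% in CD4 T cells. The part of such cells in the results on miR-21a was not tested. miR-150-5p, listed as a marker of resting cells, had a median of 4.24% for OVA-lung Th2 (0.161% to 4.43%). Its median was 4.86% in CD4 T cells (0.588% to 11.4%) and 0.0362% for cultured Th2. Whether OVA-lung Th2 included resting cells was not tested. The labels do not tell whether libraries of the same group stem from different animals or cultures. The p-values therefore describe the spread between the sequenced libraries, which may be technical.

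miR-21a-5p was a large part of the microRNA of the stimulated cells. Its share of the counts was 1.88%, 9.26%, 25.0% and 45.6% in IL-33 ILC2 libraries 1 to 4 and 5.56%, 24.4%, 40.0% and 62.2% in cultured ILC2 libraries 1 to 4, against 1.69%, 2.96%, 4.80% and 10.7% in lung ILC2 libraries 1 to 4. Both stimulated groups overlap with lung ILC2: IL-33 ILC2 libraries 1 and 2 and cultured ILC2 library 1 lie within the range of lung ILC2. Among T cells the share was 49.0%, 31.3% and 52.8% in OVA-lung Th2 libraries 1 to 3 and 29.4%, 36.4%, 51.9% and 82.2% in cultured Th2 libraries 1 to 4, against 2.54%, 2.16%, 4.77% and 9.26% in CD4 T cell libraries 1 to 4. Neither T helper group overlaps with CD4 T cells. Of the 384 microRNAs tested below, 3.91% were higher than in CD4 T cells with no overlap for OVA-lung Th2, and 4.69% lower. For cultured Th2 these were 2.6% higher and 4.69% lower. Counting error was small at these depths: the 95% Wilson interval of the smallest library analysed, OVA-lung Th2 library 3, was 52.5% to 53.2%, and that of lung ILC2 library 3 was 4.65% to 4.94%. The intervals cover the counting error of independent reads only. Reads without molecular identifiers are not independent molecules, so the intervals may be too narrow even for counting error.

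**Figure D1:**
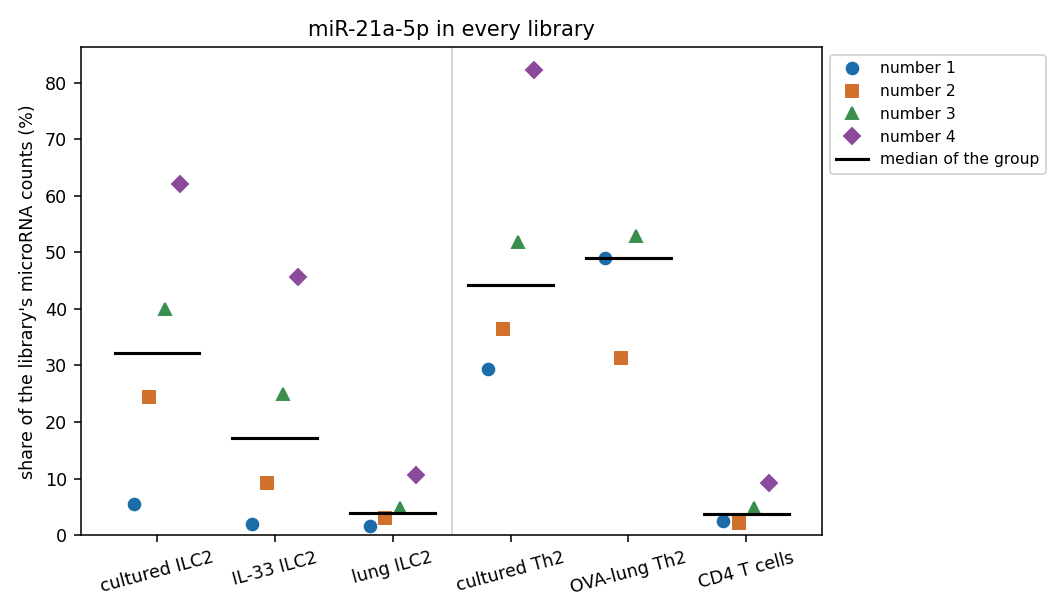
Share of miR-21a-5p in the microRNA counts of each library (vertical axis, percent) in the 6 groups, with a colour per replicate number and a line at the median of the group. All OVA-lung Th2 and cultured Th2 libraries lie at or above 29.4%, and all lung ILC2 and CD4 T cell libraries at or below 10.7%.

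miR-21a-5p was the most abundant microRNA in 13 of the 23 libraries: 3 of the IL-33 ILC2, 3 of the cultured ILC2, all 3 of the OVA-lung Th2 and all 4 of the cultured Th2 libraries, and 0 of the lung ILC2 and 0 of the CD4 T cell libraries. Its lowest rank was 14, in IL-33 ILC2 library 1 and CD4 T cell library 2. In cultured Th2 library 4 it had 15.1 times the counts of the next microRNA, let-7f-5p. In OVA-lung Th2 library 3 it had 11.9 times those of miR-150-5p, and in cultured ILC2 library 4 it had 9.49 times those of let-7f-5p. In lung ILC2 and CD4 T cells another microRNA led in each library, and miR-21a-5p had between 0.0838 and 0.678 times the counts of the leader in lung ILC2 and between 0.189 and 0.483 times in CD4 T cells. The leaders there were members of the let-7 family, known to hold back growth genes, in 5 of these 8 libraries, and miR-24-3p, miR-150-5p and miR-29a-3p in the other 3.

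By median share the order was CD4 T cells (3.65%), lung ILC2 (3.88%), IL-33 ILC2 (17.2%), cultured ILC2 (32.2%), cultured Th2 (44.2%) and OVA-lung Th2 (49.0%). Each neighbour in this order overlaps with the next. The spread within a group followed the replicate number: the library of number 4 held the highest share in 5 of the 5 groups that have one, and the library of number 1 the lowest in 4 of 6. Within a number the order was more regular than over all libraries. In numbers 2, 3 and 4 CD4 T cells were lowest, followed by lung ILC2, IL-33 ILC2, cultured ILC2 and then the T helper groups. CD4 T cells and lung ILC2 were nearly level in number 3, at 4.77% and 4.80%. In number 1 lung ILC2 were lowest, IL-33 ILC2 were close to them, and CD4 T cells stood above both. OVA-lung Th2 held a higher share than cultured Th2 in numbers 1 and 3 and a lower one in number 2.

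**Figure D2:**
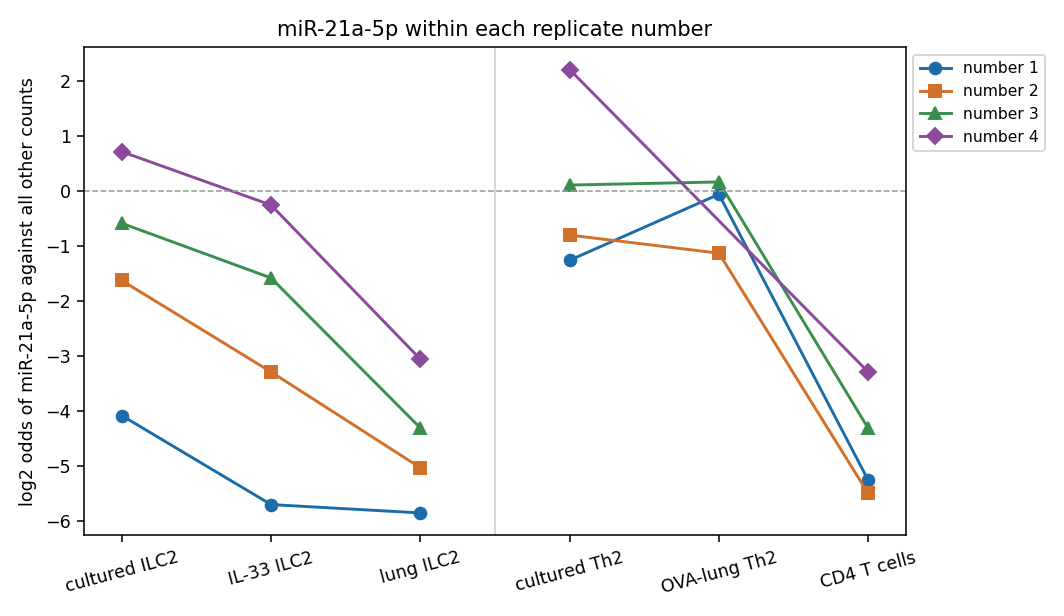
Log2 odds of miR-21a-5p counts against all other microRNA counts (vertical axis, 0 is equal numbers) in each library, with lines joining the libraries of 1 replicate number within the ILC2 groups and within the T cell groups. Every line through the ILC2 groups is highest in cultured ILC2, and every line through the T cell groups is lowest in CD4 T cells.

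Because a share cannot pass 100%, the shares were compared as log2 odds of miR-21a-5p against all other counts. Within numbers the odds of IL-33 ILC2 were higher than those of lung ILC2 in 4 of 4, by 0.15 to 2.80 (mean 1.86 ± 1.24, SD, n = 4). Cultured ILC2 were higher than lung ILC2 in 4 of 4, by 1.77 to 3.78 (mean 3.17 ± 0.95, SD, n = 4). OVA-lung Th2 were higher than CD4 T cells in 3 of 3, by 4.37 to 5.20 (mean 4.69 ± 0.45, SD, n = 3). Cultured Th2 were higher than CD4 T cells in 4 of 4, by 4.00 to 5.50 (mean 4.66 ± 0.63, SD, n = 4). The smallest of these differences was that of IL-33 ILC2 in number 1. A two-sided exact permutation test over libraries, ignoring the numbers, gave p = 0.0286 for OVA-lung Th2 and p = 0.0286 for cultured Th2 against CD4 T cells (adjusted over the 9 pairs of groups compared, 0.129 for each exact p). These are the smallest p-values that 4 against 3 and 4 against 4 libraries can give. The exact p was 0.0571 for cultured ILC2 (adjusted 0.171) and 0.229 for IL-33 ILC2 (adjusted 0.411), both against lung ILC2. Sign flips within numbers cannot go below an exact p of 0.125 with 4 numbers or 0.25 with 3, and gave these smallest values in all 4 comparisons.

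The level was then tested across all microRNAs (edgeR quasi-likelihood fit with TMM scaling of 384 tested microRNAs, Benjamini-Hochberg adjustment over all of them, called below 0.05). With the replicate number in the model as a block, miR-21a-5p rose in all 4 comparisons of stimulated with unstimulated cells, and without the block it rose in the 2 comparisons of cultured cells. In IL-33 ILC2 against lung ILC2 the log2 change was 2.68 ± 0.47 (SE, edgeR adjusted p = 0.000505), the smallest p of all microRNAs in a comparison where 0.521% were called. Without the block it was 3.22 ± 0.93 (edgeR adjusted p = 0.436), where 0% were called (22 microRNAs at an unadjusted p below 0.05, and 3 called by DESeq2). The calls by DESeq2 did not include miR-21a-5p. The median change of all 384 microRNAs with the block was 0.66, so miR-21a-5p lay 2.02 above it. The call with the block failed when lung ILC2 library 2 (2.70, edgeR adjusted p = 0.1) or IL-33 ILC2 library 4 (2.29, edgeR adjusted p = 0.322) was left out. Mesenchymal marker microRNAs were lower in both IL-33 ILC2 and cultured ILC2 than in lung ILC2 in the ranges given above. Endothelial and erythroid markers of both groups overlapped in range with those of lung ILC2. The part of such cells in these changes was not tested.

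In cultured ILC2 against lung ILC2 miR-21a-5p rose by 3.78 ± 0.48 with the block (SE, edgeR adjusted p = 5.59e-07), again the smallest p, where 4.43% of microRNAs were called. Without the block it rose by 4.05 ± 0.97 (edgeR adjusted p = 0.0444) and was the 1 microRNA called, 0.26% of those tested. With the block the call held without each of the 8 libraries in turn, with changes of 3.60 to 4.25. Without the block the change was 2.78 to 4.90 and the call held in 1 of these 8, without lung ILC2 library 4. Against IL-33 ILC2, cultured ILC2 had a higher share in 4 of 4 numbers. That difference, 1.10 ± 0.44 with the block (SE, edgeR adjusted p = 0.158, 4.17% of microRNAs called) and 0.83 ± 0.86 without it (adjusted p = 0.823, 0% called), did not pass the threshold. With the block it passed without IL-33 ILC2 library 3 (1.69, edgeR adjusted p = 0.042) or without cultured ILC2 library 1 (1.72, edgeR adjusted p = 0.028).

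Among T cells, miR-21a-5p rose in OVA-lung Th2 against CD4 T cells by 3.94 ± 0.50 with the block (SE, edgeR adjusted p = 5.58e-07), the smallest p of all, where 5.73% of microRNAs were called. Without the block the change was 3.03 ± 0.96 (edgeR adjusted p = 0.154, 0% called, 66 at an unadjusted p below 0.05 and 29 called by DESeq2). Here too miR-21a-5p was not among the calls by DESeq2. The median of all microRNAs with the block was −0.58, so miR-21a-5p lay 4.51 above it. In cultured Th2 against CD4 T cells it rose by 4.36 ± 0.50 with the block (SE, edgeR adjusted p = 1.36e-08, 13% of microRNAs called) and by 4.72 ± 1.0 without it (edgeR adjusted p = 0.00362, 1.04% called). With the block both calls held without each library in turn, with changes of 2.94 to 4.47 for OVA-lung Th2 and 3.90 to 4.75 for cultured Th2. Without the block the call in cultured Th2 was lost without cultured Th2 library 1 or 4 and without CD4 T cell library 1 or 2 (3.24 to 5.01, edgeR adjusted p of 0.098 to 0.133). Between the T helper groups the change of cultured against OVA-lung Th2 was 0.42 ± 0.48 with the block (edgeR adjusted p = 0.617, 1.82% called) and 1.69 ± 0.97 without it (edgeR adjusted p = 0.322, 0.521% called).

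ILC2 and T cells with no stimulation held mean shares of miR-21a-5p that differed by less than their spread. Lung ILC2 averaged 5.04 ± 3.99% and CD4 T cells 4.68 ± 3.26% (SD, n = 4 each), and lung ILC2 were higher in 3 of 4 numbers. The log2 change of lung ILC2 against CD4 T cells was −0.96 ± 0.44 with the block (edgeR adjusted p = 0.14, 12.5% of microRNAs called) and −1.05 ± 0.87 without it (edgeR adjusted p = 0.512, 1.56% called). The median of all microRNAs in that comparison was −1.09 with the block, and miR-21a-5p lay 0.13 above it. On library totals in place of TMM the change was 0.11 without the block.

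Stimulated ILC2 had less miR-21a-5p than stimulated T helper cells within the numbers. These groups differ in stimulus, its duration and the selection of the cells as well as in lineage. In vivo they also differ in strain, and in culture in organ of origin. These cannot be told apart. IL-33 ILC2 had lower odds of miR-21a-5p than OVA-lung Th2 in 3 of 3 numbers, by −5.65 to −1.75 on the log2 scale, and the level fell by 2.22 ± 0.50 log2 with the block (edgeR adjusted p = 0.00488, 3.39% of microRNAs called). Without the block the change was −0.87 ± 0.92 (edgeR adjusted p = 0.628, 0% called), and with it the call was lost without IL-33 ILC2 library 2 (−1.86, edgeR adjusted p = 0.0767), IL-33 ILC2 library 4 (−2.0, edgeR adjusted p = 0.101) or OVA-lung Th2 library 1 (−1.36, edgeR adjusted p = 0.0851). Cultured ILC2 had lower odds than cultured Th2 in 4 of 4 numbers, by −2.83 to −0.69, and the level fell by 1.54 ± 0.45 log2 with the block (edgeR adjusted p = 0.0213, 12.5% called). Without the block the change was −1.73 ± 0.88 (edgeR adjusted p = 0.332, 0.26% called), and with it the call was lost without cultured ILC2 library 1 or 4 or cultured Th2 library 1 or 4 (−1.72 to −1.20, edgeR adjusted p of 0.111 to 0.228). That call also ended on library totals in place of TMM (−0.87, edgeR adjusted p = 0.176). Whether the rise itself differs between ILC2 and T cells was tested as a difference of changes. The rise of IL-33 ILC2 over lung ILC2 minus that of OVA-lung Th2 over CD4 T cells was −1.26 ± 0.65 with the block (edgeR adjusted p = 0.254, 3.65% called) and 0.19 ± 1.26 without it (edgeR adjusted p = 1, 0% called). With the block it was called on DESeq2 size factors (−2.71, edgeR adjusted p = 0.00229) and on library totals (−2.20, edgeR adjusted p = 0.0279). In culture the difference of changes was −0.58 ± 0.61 with the block (edgeR adjusted p = 0.755, 0.781% called) and −0.67 ± 1.21 without it (edgeR adjusted p = 0.995, 0% called).

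miR-21a-3p, the minor product, was higher in cultured ILC2 and in both T helper groups than in their unstimulated counterparts. It had 3.97, 256, 906 and 514 CPM in IL-33 ILC2 libraries 1 to 4 and 726, 2337, 1044 and 1649 CPM in cultured ILC2 libraries 1 to 4, against 386, 77.9, 409 and 161 CPM in lung ILC2 libraries 1 to 4. Cultured ILC2 do not overlap with lung ILC2, whereas IL-33 ILC2 do. The level in IL-33 ILC2 library 1 rests on 2 counts, 0.000397% of that library, with a 95% Wilson interval for its part of both arms of 0.00579% to 0.0769%. Among T cells it had 308, 1341 and 2791 CPM in OVA-lung Th2 libraries 1 to 3 and 3114, 1784, 1270 and 1132 CPM in cultured Th2 libraries 1 to 4, against 40.8, 94.8, 54.0 and 209 CPM in CD4 T cell libraries 1 to 4. Both T helper groups lie above all CD4 T cell libraries. Of the 384 tested microRNAs, 2.34% were higher with no overlap in cultured ILC2 against lung ILC2. Against CD4 T cells this was 3.91% in OVA-lung Th2 and 2.6% for cultured Th2.

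**Figure D3:**
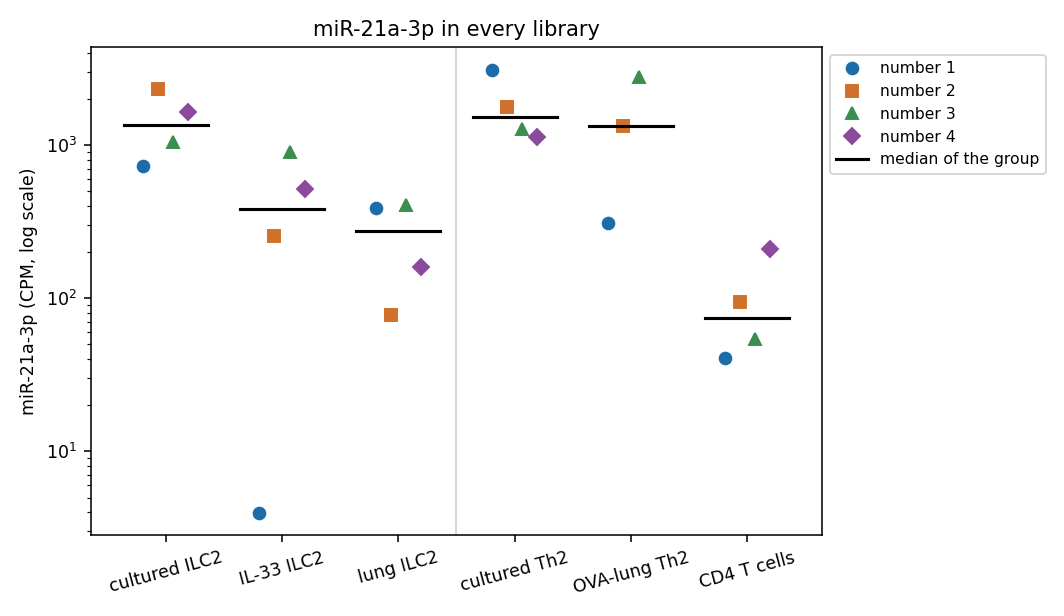
miR-21a-3p in CPM (vertical axis, log scale) in each library of the 6 groups, with a colour per replicate number and a line at the median of the group. The lowest point, 3.97 CPM in IL-33 ILC2 library 1, stands for 2 counts, and the CD4 T cell libraries lie between 40.8 and 209 CPM.

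By median the order of miR-21a-3p was CD4 T cells (74.4 CPM), lung ILC2 (273 CPM), IL-33 ILC2 (385 CPM), OVA-lung Th2 (1341 CPM), cultured ILC2 (1346 CPM) and cultured Th2 (1527 CPM), and each neighbour overlaps with the next. In the fit across all microRNAs the 3p arm rose in 3 comparisons with the block, and in 0 without it. In cultured ILC2 against lung ILC2 the log2 change was 3.64 ± 1.01 with the block (SE, edgeR adjusted p = 0.0255) and 3.66 ± 1.38 without it (adjusted p = 0.217). It was higher in 4 of 4 numbers, and with the block the call held in 3 of the 8 fits that left out 1 library. Leaving out lung ILC2 library 2, 3 or 4, or library 2 or 4 of the cultured ILC2, ended the call, at changes of 3.31 to 3.65 and edgeR adjusted p of 0.07 to 0.149. The call also ended on DESeq2 size factors (2.80, edgeR adjusted p = 0.108), on library totals (2.42, edgeR adjusted p = 0.162) and with the scaling computed without both arms (3.32, edgeR adjusted p = 0.0528). In OVA-lung Th2 against CD4 T cells the change was 3.64 ± 1.06 with the block (SE, edgeR adjusted p = 0.0351), higher in 3 of 3 numbers, and 3.46 ± 1.41 without it (adjusted p = 0.155). With the block this call held in 1 of 7 such fits, without OVA-lung Th2 library 1, and the others gave 2.80 to 3.79 (edgeR adjusted p of 0.0549 to 0.131). In cultured Th2 against CD4 T cells it was 5.13 ± 1.07 with the block (SE, edgeR adjusted p = 0.000925), higher in 4 of 4 numbers, with the call kept in 8 of 8 such fits (4.21 to 5.96), and 5.01 ± 1.47 without it (edgeR adjusted p = 0.0864). Without the block that change passed when CD4 T cell library 4 was left out (5.92, edgeR adjusted p = 0.0454).

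In IL-33 ILC2 against lung ILC2 miR-21a-3p was higher in 3 of 4 numbers and 6.61 lower on the log2 CPM scale in number 1, where IL-33 ILC2 had the 2 counts. Its change was 1.44 ± 1.0 with the block (SE, edgeR adjusted p = 0.647) and 1.85 ± 1.29 without it (adjusted p = 0.921). It was −0.44 in limma on log2(RPM + 1), so its direction depends on the scale. Between lung ILC2 and CD4 T cells the change was 0.33 ± 0.95 with the block (edgeR adjusted p = 0.835) and 0.15 ± 1.25 without it (edgeR adjusted p = 0.99). It was below 0 without lung ILC2 library 1 (−0.58 with the block) or without CD4 T cell library 1 or 3 (−0.11 and −0.06). The differences of IL-33 ILC2 from OVA-lung Th2 (−1.86 ± 0.98 with the block, edgeR adjusted p = 0.258) and of cultured ILC2 from cultured Th2 (−1.16 ± 0.92, adjusted p = 0.496) had the sign of those of the 5p arm and were not called. The other pairs gave 2.20 ± 0.97 for cultured against IL-33 ILC2 (edgeR adjusted p = 0.185 with the block) and 1.50 ± 1.06 for cultured against OVA-lung Th2 (adjusted p = 0.342).

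**Figure D4:**
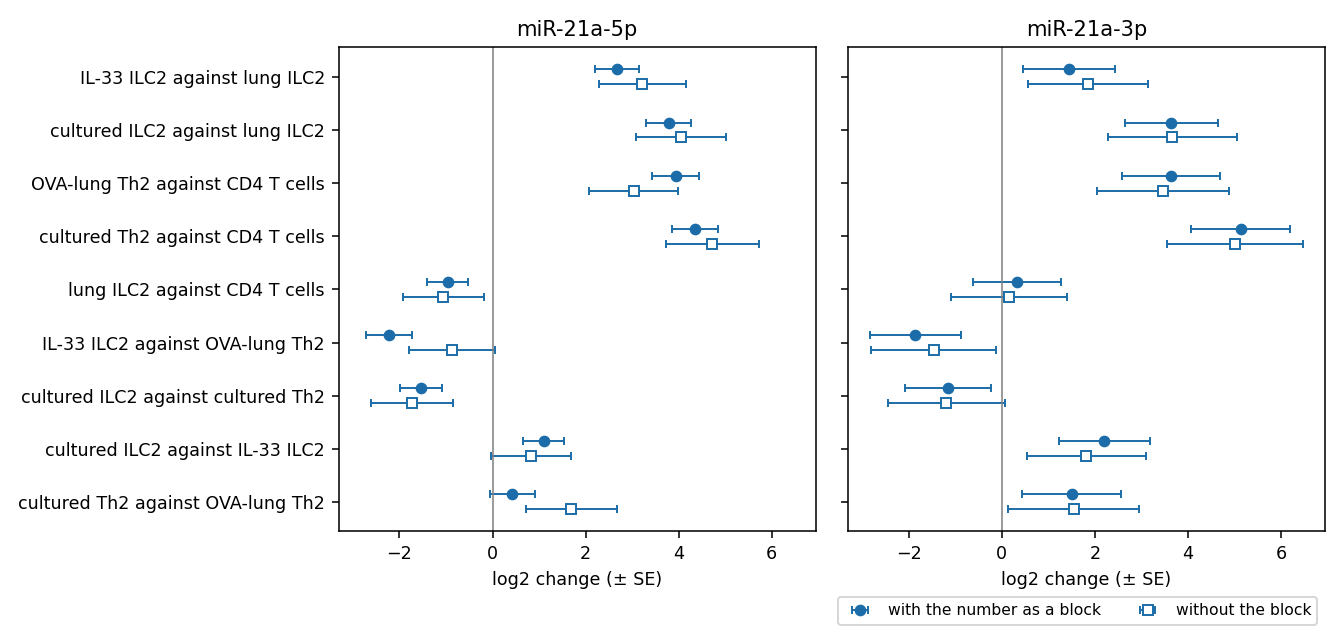
Log2 changes (horizontal axis) of miR-21a-5p on the left and miR-21a-3p on the right in 9 pairs of groups, from edgeR with the number as a block (filled circles) and without it (open squares), with bars of 1 SE to each side. Both arms lie above 0 in the 4 comparisons of stimulated with unstimulated cells, and the bars are shorter with the block.

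Changes of level depend on how libraries are scaled when 1 microRNA holds most of the counts. The TMM factor was lowest, 0.20, in cultured Th2 library 4, which had 82.2% of its counts in miR-21a-5p, and highest, 3.10, in lung ILC2 library 3. The factor of this library was 2.43 when counts ending in 0.5 were rounded to the even number, and IL-33 ILC2 library 2 then had the highest, 2.66. With the block, the change of miR-21a-5p in IL-33 ILC2 against lung ILC2 was 2.68 under TMM, 1.90 on DESeq2 size factors, 1.79 on library totals and 2.47 with the scaling computed without both arms. It passed the threshold in each, with edgeR adjusted p of 0.000505 to 0.023. Relative to the median of all microRNAs the same 4 fits gave 2.02, 1.91, 1.99 and 2.00. In the same way the change relative to the median was 2.83 to 3.00 in cultured ILC2 against lung ILC2, while against CD4 T cells it was 4.45 to 4.51 in OVA-lung Th2 and 3.86 to 4.01 for cultured Th2. For lung ILC2 against CD4 T cells it was 0.13 to 0.18, and it was −2.38 to −2.26 between IL-33 ILC2 and OVA-lung Th2 and −1.11 to −0.85 between cultured ILC2 and cultured Th2.

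The ratio of the arms varied widely between libraries of 1 group. The 3p arm made up 0.0211%, 0.276%, 0.36% and 0.113% of the counts of both arms in IL-33 ILC2 libraries 1 to 4 and 1.29%, 0.947%, 0.260% and 0.265% in cultured ILC2 libraries 1 to 4, against 2.23%, 0.263%, 0.845% and 0.150% in lung ILC2 libraries 1 to 4. It made up 0.0629%, 0.426% and 0.525% in OVA-lung Th2 libraries 1 to 3 and 1.05%, 0.487%, 0.244% and 0.138% in cultured Th2 libraries 1 to 4, against 0.161%, 0.438%, 0.113% and 0.225% in CD4 T cell libraries 1 to 4. So the 5p arm had at least 43.9 times the counts of the 3p arm, in lung ILC2 library 1, and at most 4740 times, in IL-33 ILC2 library 1. The groups overlap in all 9 pairs. In lung ILC2 library 1 the Wilson interval was 1.71% to 2.90%. Were reads independent, counting error would not span the distance to the other lung ILC2 libraries.

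**Figure D5:**
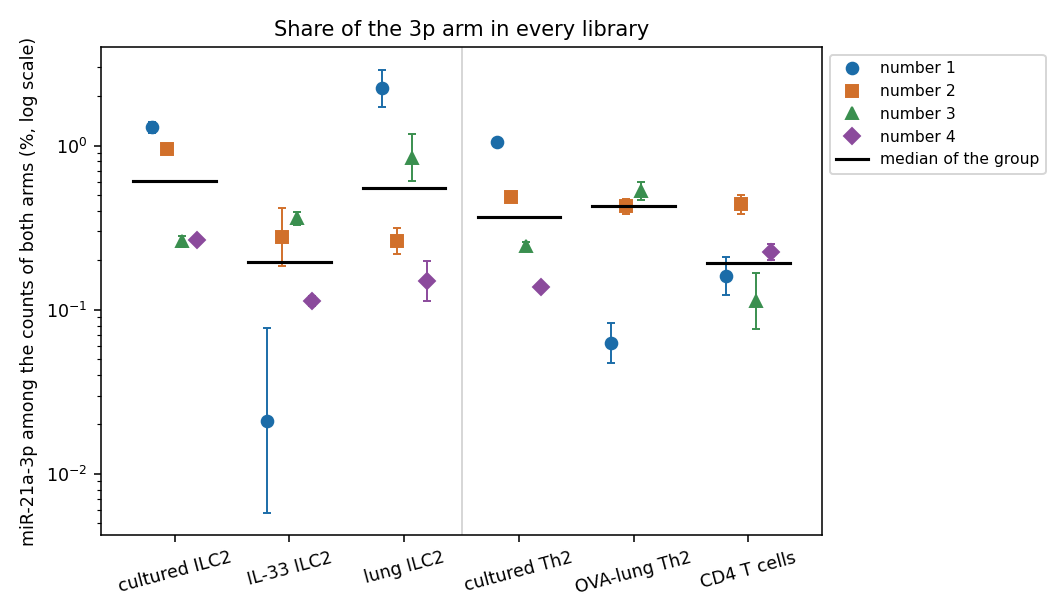
Counts of miR-21a-3p as a percent of the counts of both arms (vertical axis, log scale) in each library, with 95% Wilson intervals that cover counting error only, a colour per replicate number and a line at the median of the group. The 6 medians lie between 0.193% and 0.606%, and the ranges of all groups overlap.

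The log2 ratio of the 5p to the 3p arm averaged 9.56 ± 1.71 in IL-33 ILC2 and 7.53 ± 1.22 in cultured ILC2, against 7.56 ± 1.76 in lung ILC2 (SD, n = 4 each). It averaged 8.68 ± 1.68 in OVA-lung Th2 (SD, n = 3) and 8.10 ± 1.27 in cultured Th2, against 8.91 ± 0.82 in CD4 T cells (SD, n = 4 each). In a model of both arms of 232 hairpins with a term per library, the ratio of miR-21a was called in 0 of the 9 pairs and 0 of the 2 differences of changes (edgeR adjusted p = 1 in each), and 0% of hairpins were called in any of them. limma on the log2 ratios called it in 0 of them too. The unadjusted p of miR-21a in edgeR was below 0.05 in 0 of them and lowest, 0.408, for cultured against IL-33 ILC2. The differences were 1.91 ± 2.45 in IL-33 ILC2 and −0.07 ± 2.37 in cultured ILC2 against lung ILC2 (SE). They were −0.31 ± 2.52 for OVA-lung Th2 and −0.81 ± 2.29 for cultured Th2, both against CD4 T cells (SE). The exact permutation test over libraries, two-sided, gave p of 0.171 or more in all 9 pairs (adjusted 0.686 or more). With the number as a block the standard errors of the 9 pairs were 1.50 to 1.79, and edgeR called the ratio of miR-21a in 0 of them (adjusted p = 1 in each). Within numbers the log2 ratio of IL-33 ILC2 was above that of OVA-lung Th2 in 3 of 3, by 0.55 to 1.27, and that of cultured ILC2 was below that of cultured Th2 in 4 of 4, by −0.97 to −0.09. Errors of this size do not exclude changes of the ratio in either direction. In the edgeR fit the estimate of spread was shared across the hairpins. miR-21a varied less within groups than other hairpins with many counts summed over all libraries, as given below, so its errors there may be too wide. The exact test used miR-21a alone.

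Other hairpins were set beside this spread. miR-21a had the most counts of the 232, with 99.3% of them from the 5p arm. After it came let-7i with 99.9% from the 5p arm, miR-29a, known to hold back genes of the interferon response, with 0.219%, and the blood cell microRNA miR-142a with 72.5%. The standard deviation of the log2 ratio within groups was 1.45 for miR-21a, 3.10 for let-7i, 1.61 for miR-29a and 5.54 for miR-142a. At least 1000 counts of each arm, summed over the 23 libraries, were found in 56 hairpins. Of these, the other 55 had a larger standard deviation than miR-21a (median of all 56, 2.86). A hairpin could pass with no counts of an arm in some libraries, whereas both arms of miR-21a had counts in each. This ranking is a description, and the depth of miR-21a, the highest of all, moves with it. The spread of miR-142a was uneven, with an SD of 6.90 in cultured ILC2, 7.35 in cultured Th2 and 8.88 in CD4 T cells. The highest log2 ratios there were 14.4, 16.7 and 15.9. Its SD was 1.43 in lung ILC2, 0.60 in IL-33 ILC2 and 1.01 in OVA-lung Th2. The log2 ratios have 0.5 counts added to each arm. With no counts of the lesser arm, a ratio is therefore set by the depth of the other arm. How much of the spread of these hairpins came from low or absent counts of the lesser arm was not tested.

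The microRNAs whose levels went most with miR-21a-5p over the 23 libraries were found by Spearman correlation of log2 CPM after the mean of each number was taken off, among the 124 microRNAs whose log2 CPM averaged 6 or more. The libraries share tables, groups and scaling, so the values describe likeness only. They were miR-155-5p (0.87), a microRNA known to be needed for full lymphocyte responses, miR-182-5p (0.86) and miR-183-5p (0.83), which come from a single cluster, miR-21a-3p (0.81) and miR-132-3p (0.80), a microRNA known to follow CREB activity. The 3p arm of the same hairpin was thus 4th after this step. Without the number taken off, the correlation was 0.80 for miR-21a-3p, 0.77 for miR-132-3p, 0.76 for miR-182-5p, 0.72 for miR-183-5p and 0.53 for miR-155-5p, so the order depends on it. miR-155-5p averaged 1359 ± 1679 CPM in IL-33 ILC2 and 6066 ± 9493 CPM in cultured ILC2, against 427 ± 488 CPM in lung ILC2 (SD, n = 4 each). It averaged 6104 ± 2205 CPM in OVA-lung Th2 (SD, n = 3) and 2830 ± 2446 CPM in cultured Th2, against 514 ± 593 CPM in CD4 T cells (SD, n = 4 each). Least like miR-21a-5p were miR-203-3p (−0.65), let-7c-5p (−0.62) and miR-151-5p (−0.58). let-7c-5p averaged 42504 ± 33701 CPM in IL-33 ILC2 and 10209 ± 5481 CPM in cultured ILC2, against 45953 ± 6855 CPM in lung ILC2 (SD, n = 4 each).

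Lymphocyte activation is known to raise a set of microRNAs that includes miR-21a; 19 others of this set were listed, and 17 of them tested. With the block, the list had 1 call higher and 0 lower in IL-33 ILC2 against lung ILC2, and 2 and 0 in cultured ILC2 against lung ILC2. Against CD4 T cells it had 1 higher and 0 lower in OVA-lung Th2, with 5 higher and 1 lower in cultured Th2. In these 4 comparisons 5.88%, 11.8%, 5.88% and 35.3% of the list were called, beside 0.521%, 4.43%, 5.73% and 13% of all 384 microRNAs, so that the share in OVA-lung Th2 was that of all microRNAs. Its median log2 change in these comparisons was 1.19, 3.09, 2.03 and 2.98, beside 0.66, 0.78, −0.58 and 0.36 for all 384 microRNAs. The 1 call in IL-33 ILC2, miR-146a-5p, known as a brake on NF-kB signaling, rose by 2.26 ± 0.54 (SE, edgeR adjusted p = 0.0263), so that it and miR-21a-5p were the 2 microRNAs called there. miR-146a-5p rose too in cultured ILC2 (3.42 ± 0.55, edgeR adjusted p = 4.37e-05) and in OVA-lung Th2 (2.03 ± 0.58, edgeR adjusted p = 0.0292). It was the 1 list member that fell in cultured Th2 against CD4 T cells (−1.58 ± 0.53, edgeR adjusted p = 0.0433). In cultured ILC2 the other call was miR-155-5p (5.02 ± 1.41, edgeR adjusted p = 0.0439). miR-146a-5p parted from miR-21a-5p between the cultured groups, where it was higher in cultured ILC2 than in cultured Th2 by 5.43 ± 0.61 (edgeR adjusted p = 1.19e-08), while miR-21a-5p was lower. In cultured Th2 against CD4 T cells miR-210-3p, known from the response to low oxygen, rose by 5.97 ± 0.94 (SE, edgeR adjusted p = 1.43e-05), miR-183-5p by 5.62 ± 1.09 (edgeR adjusted p = 0.000443) and miR-182-5p by 4.83 ± 0.95 (edgeR adjusted p = 0.000443). The other 2 list members that rose there were miR-155-3p (7.23 ± 2.23, edgeR adjusted p = 0.0312) and miR-301a-3p (4.34 ± 1.24, edgeR adjusted p = 0.0214). Without the block the list had 1 call in these 4 comparisons, miR-210-3p in cultured Th2 (5.93 ± 1.54, edgeR adjusted p = 0.0293). The 4 comparisons share their control libraries in pairs, and the list was chosen with earlier results of these data known.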

How the data were processed

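Small RNA libraries of 6 mouse populations (23 libraries) were used. The authors deposited 4 tables of expected counts per microRNA (871, 1141, 482 and 725 entries, 417 in all 4) and 1 table of RPM. The submitters' processing notes name mm10 as the build and, without a version, DESeq2. The submitters' names for the count data carry the term exceRpt, without a version. The sources used here give neither aligner nor annotation. An entry absent from a table was set to 0, 6 columns of values were not used and 1 empty line was dropped. The deposited RPM of both arms differed from CPM by at most 0.0105%.

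Expected counts (9.98% of values above 0 were fractional) were rounded to whole numbers, with 0.5 rounded up. edgeR 4.0.16 in R 4.3.3 fitted all 6 groups with TMM scaling, filterByExpr by group and robust quasi-likelihood F-tests. Arm ratios were fitted with a term per library on hairpins that reached 10 counts in 3 or more libraries. Log2 ratios of the arms have 0.5 counts added to each arm. The fits were also run on simulated data. These had no effect of the replicate number and less spread than the fits without the block found. That run is not used as support for the calls. limma 3.58.1, DESeq2 1.42.0, other scalings, pseudocounts, filters and leaving out each library were alternatives. Exact tests used Python 3 and numpy.

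In the labels a replicate number goes with 1 of the 4 count tables, and libraries with the same number were treated as paired. Deviations from the group means over 204 microRNAs correlated above 0.1 in 51 of 55 pairs of the same number (median 0.38, lowest −0.04). The median was −0.15 between libraries that differ in number and group. Deviations within a group sum to 0, so this negative value follows in part from the positive values within numbers and is no separate baseline. For 22 of 23 libraries the best correlate had the same number. Libraries of the same group are pushed apart by the same step, so they had little room to be the best correlate. The biological coefficient of variation was 1.13 with the block and 1.54 without it. It is the alternative fit, and stands beside the fit without it because it changes calls.

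Members, lists and tests were chosen with earlier results of these data known. Named microRNAs are both arms, miR-21b, miR-21c and others with the same seed, the 5 most and 3 least like miR-21a-5p, up to 3 members of the activation list per comparison by p, and the 3 hairpins with most counts besides miR-21a. The leading microRNAs of libraries and the other called members of the activation list were added after their values were seen. The smallest exact p for 4 against 3 libraries is 0.0286, not the larger value planned for.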

Additional observations from a re-analysis of the deposited data

How the results depend on the processing

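All values are log2 differences. In the fits without the block, the level of miR-21a-5p lost its call in cultured ILC2 against lung ILC2 on DESeq2 size factors (3.28), library totals (2.71), scaling without miR-21a (3.64), no filter (3.51), the DESeq2 Wald test (3.28) and limma on log2(RPM + 1), log2(RPM + 10) or RPM with no filter (2.59 in each), and in cultured Th2 against CD4 T cells on size factors (5.01), scaling without miR-21a (5.34) and limma with no filter (3.55). In OVA-lung Th2 against CD4 T cells it gained a call on library totals (3.25) and in limma at either pseudocount (3.46). With the replicate block it gained calls in IL-33 ILC2 against lung ILC2 (2.68), OVA-lung Th2 against CD4 T cells (3.94), cultured ILC2 against cultured Th2 (−1.54) and IL-33 ILC2 against OVA-lung Th2 (−2.22). The call between the cultured groups was lost on library totals (−0.87). miR-21a-3p gained calls with the block in cultured ILC2 against lung ILC2 (3.64), OVA-lung Th2 (3.64) and cultured Th2 (5.13) against CD4 T cells, and in both T cell comparisons also in the DESeq2 Wald test (3.73 and 5.12). The call in cultured ILC2 was lost with the block on size factors (2.80), library totals (2.42) and scaling without miR-21a (3.32). The direction turned for miR-21a-5p in lung ILC2 against CD4 T cells on library totals (0.11) and in the 3 limma fits (0.0232), and in cultured against OVA-lung Th2 with the block on library totals (−0.43). It turned for the in vivo difference of changes with the block (−1.26), on size factors and in DESeq2 (−1.10), on totals (−1.23) and in limma (−1.89), and with the block that difference was called on size factors (−2.71) and totals (−2.20). It turned for miR-21a-3p in IL-33 ILC2 against lung ILC2 in limma (−0.44, or −0.12 with a pseudocount of 10). It turned for the arm ratio in cultured ILC2 against lung ILC2 with 5 counts added (0.0822) and in OVA-lung Th2 against CD4 T cells with the block (0.018, and −0.27 by sign flips), and for the share in cultured against OVA-lung Th2 by sign flips (−0.31). The cause of these changes was not tested.

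Leaving out 1 library at a time changed a call or a direction in these ranges. For miR-21a-5p without the block, cultured ILC2 against lung ILC2 gave 2.78 to 4.90, cultured Th2 against CD4 T cells 3.24 to 5.52, lung ILC2 against CD4 T cells −1.91 to 0.0023, cultured against IL-33 ILC2 −0.0096 to 2.53, the in vivo difference of changes −0.97 to 1.17 and the culture difference −2.12 to 0.82. With the block, IL-33 ILC2 against lung ILC2 gave 2.17 to 3.14, IL-33 ILC2 against OVA-lung Th2 −2.79 to −1.36, cultured ILC2 against cultured Th2 −1.89 to −1.20, cultured against IL-33 ILC2 0.71 to 1.72 and cultured against OVA-lung Th2 −0.10 to 1.40. For miR-21a-3p, cultured Th2 against CD4 T cells gave 4.63 to 5.92 and lung ILC2 against CD4 T cells −0.41 to 0.75 without the block. With it, cultured ILC2 against lung ILC2 gave 3.31 to 4.6, OVA-lung Th2 against CD4 T cells 2.80 to 4.24 and lung ILC2 against CD4 T cells −0.58 to 0.73. The arm ratio gave −0.76 to 0.57 in cultured ILC2 against lung ILC2, −1.21 to 0.32 in OVA-lung Th2 against CD4 T cells and −1.14 to 0.39 in cultured against OVA-lung Th2 without the block. With it the same comparisons gave −0.85 to 0.59, −1.02 to 0.82 and −1.62 to 0.22, IL-33 ILC2 against OVA-lung Th2 −0.36 to 1.48 and the culture difference −0.10 to 1.38. The share gave −0.47 to 0.46 in lung ILC2 against CD4 T cells and −0.31 to 0.85 in cultured against OVA-lung Th2. Depth limits the 3p arm most, with 2 counts in IL-33 ILC2 library 1.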
